A study of Mus musculus with 2 samples.

Results

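Tubulin isotypes are the products of separate genes for alpha-tubulin and beta-tubulin. The 10 genes described here are 4 alpha genes (Tuba1a, Tuba1b, Tuba1c and Tuba4a) and 6 beta genes (Tubb2a, Tubb2b, Tubb3, Tubb4b, Tubb5 and Tubb6). They were taken from a list of symbols and found by Ensembl identifier among 42462 genes with a symbol. The rule itself uses no measured value, but the list was drawn up with earlier results of these data known. The data are total RNA profiles of embryonic mouse faces (the facial prominence) at day 14.5. The strain was B6NCrl, and the labels name no treatment or altered allele. There is 1 group with 2 biological replicates. Each was labelled as the face of 1 embryo and they were collected on different days, while another label calls the tissue pooled from both sexes. No conditions were compared, so the results are levels, shares and the difference between the 2 libraries. Whole tissue was used, and fewer cells of a type and less RNA per cell cannot be told apart in it.

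Microtubules are hollow polymers of dimers, each of which holds an alpha-tubulin and a beta-tubulin. The isotypes of a family have a similar globular body, and most differ in an acidic tail at the carboxyl end, on which motors, associated proteins and modifying enzymes act. Dividing cells use microtubules for the spindle, growing neurons for axon transport and branching, muscle cells for their shape and nuclear position, and ciliated cells for the axoneme. Cells also tune the amount of free tubulin by degrading tubulin messenger RNA while it is translated, through the nascent amino end of the protein.

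The depth was 30919488 expected counts (estimated reads) in replicate 1 and 37738872 in replicate 2. Levels are TPM, a share of all transcripts, which correct for length and depth, given as the mean ± SD over both libraries (n = 2). For a transcript with 2000 effective bases, 0 counts leave room for a level of 0.0761 TPM in replicate 1 and 0.0589 in replicate 2. Facial mesenchyme markers had at least 1 TPM in both libraries for all 8 genes listed, such as Prrx1 with 80.1 and 78.8 TPM. The lowest count behind a tubulin isotype was 1351 reads. Intervals from counts cover counting error only.

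The starts of the coding sequences are shown because the first 4 codons, in capitals, encode the amino end that the autoregulation of tubulin messages reads. Each line gives the first 24 bases, 5′ to 3′, from GENCODE M21 transcripts on build mm10.
Tuba1a: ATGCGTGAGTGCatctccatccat
Tuba1b: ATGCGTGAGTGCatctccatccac
Tuba1c: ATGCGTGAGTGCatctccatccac
Tuba4a: ATGCGCGAGTGCatttcagtccat
Tubb2a: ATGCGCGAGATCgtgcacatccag
Tubb2b: ATGCGAGAGATCgtgcacattcag
Tubb3: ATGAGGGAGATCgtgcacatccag
Tubb4b: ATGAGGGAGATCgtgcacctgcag
Tubb5: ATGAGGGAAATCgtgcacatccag
The 4 alpha genes encode methionine, arginine, glutamate and cysteine, and the beta genes shown have isoleucine in place of cysteine.

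The ends of the coding sequences are shown because the tails differ between most isotypes. Each line gives, for 7 of the genes, the last 54 bases before the stop codon, which are 18 codons, with every in-frame codon for glutamate or aspartate in capitals.
Tuba1c: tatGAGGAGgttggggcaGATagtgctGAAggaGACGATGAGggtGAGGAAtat
Tuba4a: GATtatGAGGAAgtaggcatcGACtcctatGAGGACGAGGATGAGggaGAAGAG
Tubb2a: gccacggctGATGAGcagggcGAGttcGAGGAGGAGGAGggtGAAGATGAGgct
Tubb2b: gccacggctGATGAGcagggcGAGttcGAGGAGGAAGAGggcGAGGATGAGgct
Tubb3: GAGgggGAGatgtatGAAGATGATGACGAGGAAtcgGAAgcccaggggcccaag
Tubb4b: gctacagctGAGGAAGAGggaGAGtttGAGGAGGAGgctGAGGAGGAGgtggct
Tubb5: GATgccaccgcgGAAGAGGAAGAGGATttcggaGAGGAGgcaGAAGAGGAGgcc
Of these 18 codons, between 9 and 11 were acidic in each gene shown. Tuba1c ends in a tyrosine codon, the residue that detyrosination removes and tubulin tyrosine ligase puts back. Tuba4a ends in a glutamate codon and encodes no such tyrosine. Tubb3 alone of those shown ends in lysine, and the other beta genes shown end in alanine. Tubb2a and Tubb2b differ at 3 of the 54 bases, while their last 20 residues are identical.

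All 10 isotypes were expressed, at 1 TPM or more in both libraries, where 35.4% of the 42462 genes were. Their levels spanned from 1670 ± 151 TPM for Tuba1a to 47.1 ± 2.65 TPM for Tubb2b. Together they took 0.501% of all TPM in replicate 1 and 0.441% in replicate 2. The alpha genes summed to 3247 and 2855 TPM and the beta genes to 1767 and 1550 TPM. The summed alpha level was thus 1.84 times the summed beta level in each library, a ratio of estimated transcripts, corrected for length. By expected counts, which are not divided by length, the mean ratio was 1.51.

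**Figure D1:**
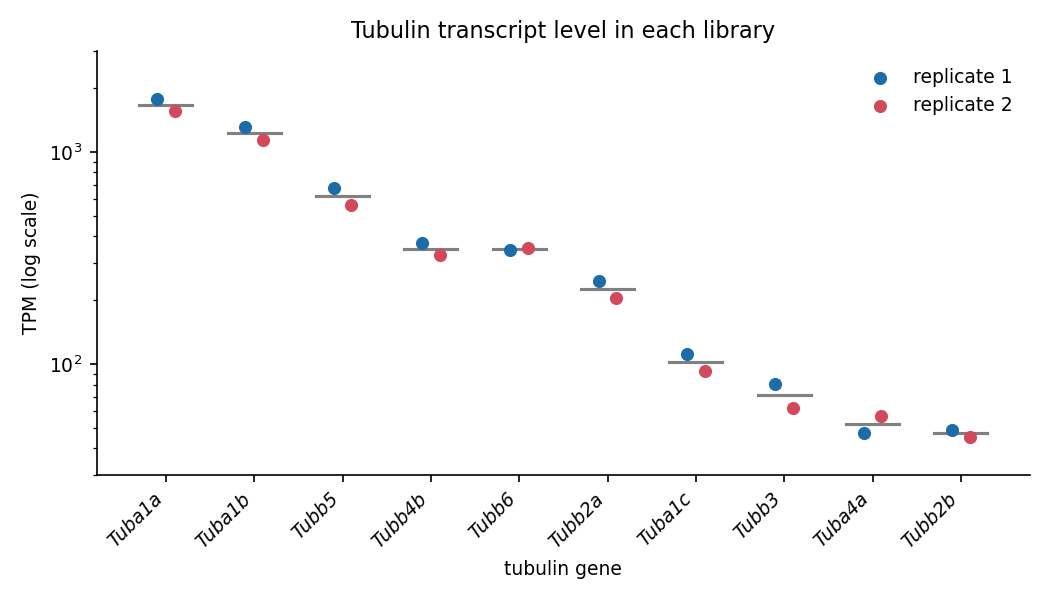
Level of each tubulin gene in TPM (log scale). Points are the 2 libraries and grey bars their mean. Tuba1a and Tuba1b stand highest, and 8 of the 10 genes have a lower point for replicate 2, where 80.8% of all genes with a mean of 5 TPM or more do.

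Tuba1a, the alpha isotype best known from migrating and axon-bearing neurons, was the highest, with 1777 and 1563 TPM in replicates 1 and 2. It ranked 43rd and 54th among all genes with a symbol. Tuba1b, the widespread alpha isotype of dividing cells, had 1311 and 1142 TPM. Tuba1a was above Tuba1b in both libraries, by 1.36-fold and 1.37-fold. These 2 genes held 95.1% of the alpha message in replicate 1 and 94.8% in replicate 2.

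Tuba1a held 54.7 ± 0.0141% of the summed alpha TPM and Tuba1b 40.2 ± 0.260%. Tuba1c, another widespread alpha isotype, had 111.8 and 93.2 TPM, or 3.35 ± 0.127% of the alpha message. Tuba4a, the isotype with no encoded tyrosine, had 47.2 and 56.6 TPM in replicates 1 and 2, or 1.45% and 1.98% of the alpha message. It was the only alpha gene that was higher in replicate 2.

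The beta message was spread over more genes. Tubb5, the main beta isotype of dividing cells, had 673 and 560 TPM in replicates 1 and 2, which was 37.1 ± 1.41% of the summed beta TPM. Tubb4b, a widespread isotype that also builds ciliary axonemes, had 373 and 326 TPM, or 21.1 ± 0.0574%. Tubb6, a beta isotype known from developing and regenerating muscle, had 345 and 353 TPM, or 21.2 ± 2.27%. The 3 genes held 78.8% of the beta message in replicate 1 and 79.9% in replicate 2.

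Tubb2a, a beta isotype abundant in neurons and present in other tissues, had 245 and 204 TPM, or 13.5 ± 0.532% of the beta message. Its neighbour Tubb2b, a gene of migrating neurons and their progenitors, had 48.9 and 45.2 TPM, or 2.84 ± 0.102%. Tubb2a was thus 5.02-fold and 4.51-fold higher than Tubb2b. Tubb3, the beta isotype used as a neuron marker, had 80.5 and 62.3 TPM, or 4.29 ± 0.381%. Tubb5 exceeded Tubb3 by 8.36-fold in replicate 1 and 8.99-fold in replicate 2.

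**Figure D2:**
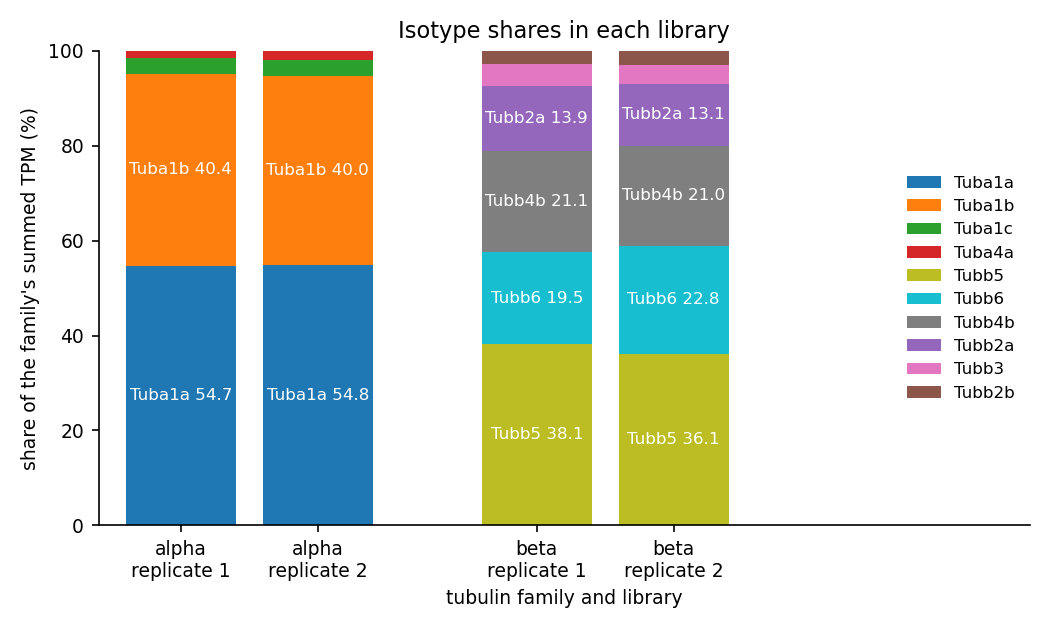
Share of each isotype in the summed TPM of its family (percent), with 1 bar for each family and library; numbers mark shares over 6%. The alpha bars are nearly the same in both libraries, and in the beta bars Tubb6 is 19.5% in replicate 1 and 22.8% in replicate 2.

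In order of mean level the genes ran Tuba1a, Tuba1b, Tubb5, Tubb4b, Tubb6, Tubb2a, Tuba1c, Tubb3, Tuba4a and Tubb2b. Of the 9 pairs of neighbours in this order, 7 had ranges that did not overlap between the libraries. Tubb4b and Tubb6 did overlap, with means of 349.8 and 349.0 TPM and the opposite order in the 2 libraries. Tuba4a and Tubb2b overlapped as well, at 51.9 ± 6.63 and 47.1 ± 2.65 TPM.

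The other alpha and beta genes added little. Of the 6 listed, 3 reached 1 TPM in both libraries. Tubb4a, a beta isotype of brain and myelinating glia, had 23.3 and 17.4 TPM in replicates 1 and 2. Tubb1, the beta isotype of platelets, had 2.33 and 1.20 TPM. The lowest were Tuba3b, with 0 counts in both, and Tubal3, with 0 and 3 counts. Tubb1 and Tubb4a together made up 1.43% and 1.19% of all beta TPM, and the 4 other alpha genes 0.0643% and 0.0655% of all alpha TPM.

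Between the libraries no isotype differed by 2-fold on the scale of log2(TPM + 1), which understates changes of low genes. Of 11438 genes with a mean of 5 TPM or more, 0.472% were 2-fold or more higher in replicate 2 and 0.236% were 2-fold or more lower. Over these genes the log2 ratio (replicate 2 over replicate 1) had a median of −0.15, and over the tubulin genes of −0.20. Tuba4a, Tubb6 and Tubb2b were the 3 of 10 isotypes above the median, where 50% of genes lie by construction. All 10 lay inside the central 95% of genes, from −0.50 to 0.38. With 2 libraries of 1 group no test across replicates was made.

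Tuba4a had the highest ratio of the 10, at 0.26, from 1351 counts in replicate 1 and 2134 in replicate 2. Scaled to depth, its counts were 1.29 times as high in replicate 2 (exact 95% counting interval 1.21 to 1.39), where the median gene had a ratio of 0.950. Tubb6 came next at 0.03, with 11288 and 14906 counts and a depth-scaled ratio of 1.08 (1.06 to 1.11). Both counting intervals lie above the median gene. Such intervals are narrow at these counts, and the share of all genes whose interval misses the median gene was not computed. Tubb2b had a log2 ratio of −0.11, and its depth-scaled ratio of 0.978 (0.917 to 1.04) had an interval that spans the median gene.

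The other 7 isotypes lay below the median. Tubb3 was the lowest, at −0.36, with 2809 counts in each library although replicate 2 was deeper. Its depth-scaled ratio was 0.819 (0.777 to 0.864), an interval below the median gene. The intervals of Tubb5, Tubb2a, Tuba1c, Tuba1b and Tuba1a lie below the median gene as well, that of Tuba1a at 0.922 to 0.944. Only that of Tubb4b, at 0.903 to 0.951, spans it. Tubb5 and Tubb2a had log2 ratios of −0.27, Tuba1c −0.26, Tuba1b −0.20, Tubb4b −0.19 and Tuba1a −0.19. Relative to the median gene Tuba1a was at −0.04 and Tuba1b and Tubb4b at −0.05, inside the interquartile range.

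**Figure D3:**
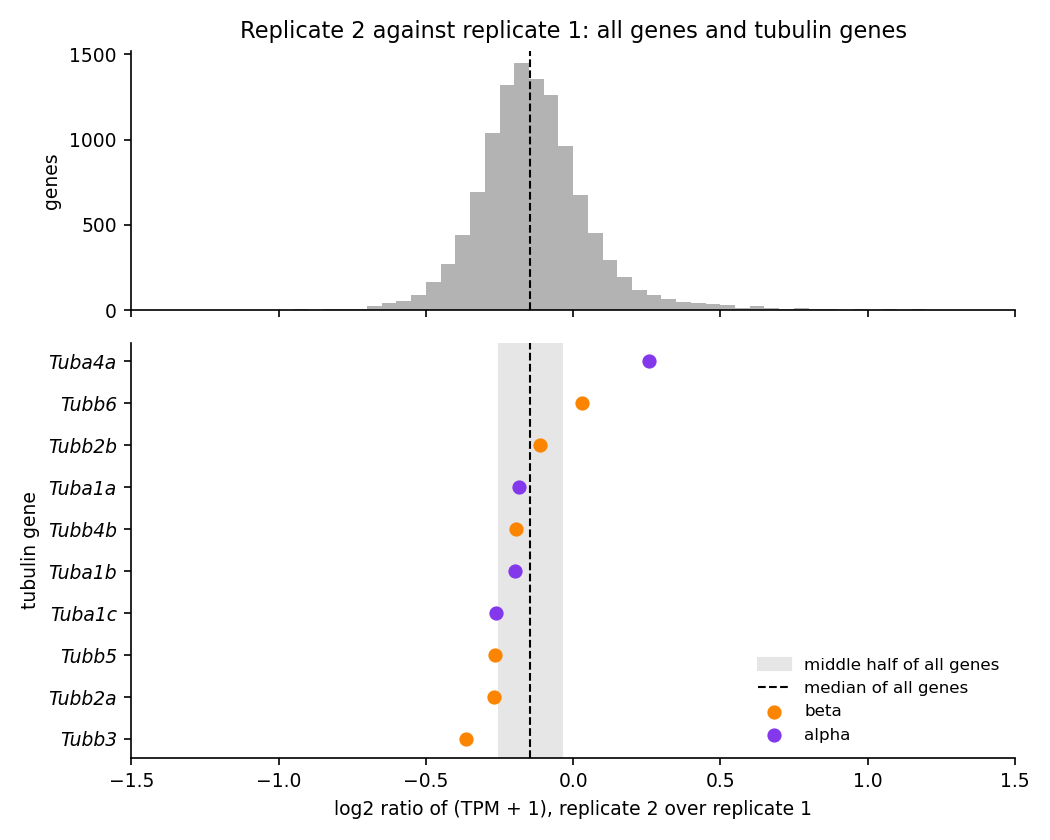
Log2 ratio of (TPM + 1), replicate 2 over replicate 1. The upper panel counts all 11438 genes with a mean of 5 TPM or more (those beyond 1.5 in size are outside the axis) and the lower panel has 1 point per tubulin gene, with the median of all genes dashed and the interquartile range shaded. Tuba4a and Tubb6 lie right of the shaded range and 4 genes lie left of it.

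Markers of cell types were read beside these ratios. Of the 8 skeletal muscle markers 7 lay above the median gene, with a median log2 ratio of 0.42 and a sum of 5294 and 6988 TPM in replicates 1 and 2. The highest of them were Acta1, a sarcomeric actin, at 1743 and 2448 TPM and Actc1 at 1732 and 1930 TPM. By TPM 6 of the 8 were higher in replicate 2, where 19.1% of genes with a mean of 5 TPM or more were. Tuba4a and Tubb6 were higher in the same library, and the part of muscle content in their ratios was not tested. The platelet list gave 85.9 and 105.2 TPM in sum, most of it from Pf4 at 75.7 and 95.5 TPM, and 3 of its 5 genes reached 1 TPM in both.

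All 12 neuron markers reached 1 TPM in both libraries, with 409 and 359 TPM in sum. Gap43, a growth cone protein, was the highest at 120.6 and 107.0 TPM. Of the 8 with a mean of 5 TPM or more, 6 lay below the median gene, and their median log2 ratio was −0.20 where Tubb3 had −0.36. That median is not particular to neurons. By the same filter it was −0.22 for facial mesenchyme, −0.21 for surface epithelium and −0.14 for endothelium. The muscle, platelet and motile cilium lists had 0.42, 0.33 and 0.78. Tubb3 was 1.25 times as high as Stmn2, a neuronal tubulin-binding protein, in replicate 1 and 1.01 times in replicate 2. The part of neuron content in the Tubb3 ratio was not tested.

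The 9 markers of proliferating cells summed to 1312 and 1082 TPM. Cdk1, the mitotic kinase, had 350 and 300 TPM, and 8 of the 9 lay below the median gene, with a median log2 ratio of −0.25. That is close to the −0.27 of Tubb5, but as close to the −0.27 of Tubb2a and the −0.26 of Tuba1c, while Tuba1b had −0.20. The lower quartile of genes with a mean of 5 TPM or more was also −0.25. The part of cell division in these ratios was not tested. All 6 markers of motile ciliated cells were higher in replicate 2 by TPM, with 15.4 and 30.7 TPM in sum. Only 2 of the 6 had a mean of 5 TPM or more, and the share of all genes without that filter was not computed. Rsph1, a radial spoke protein, passed 2-fold at a mean under 5 TPM, with 2.29 and 6.01 TPM. Tubb4b, at 373 and 326 TPM, was lower in replicate 2.

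Genes that help tubulin to fold were abundant, and none passed 2-fold. The chaperonin CCT and its partner prefoldin fold new tubulin, and 14 of their 15 listed genes reached 1 TPM in both. Cct5 and Cct3, both CCT subunits, were the highest, Cct5 with 421 and 367 TPM and Cct3 with 406 and 380 TPM, and the lowest were Cct6b, a testis form, at 0.300 ± 0.0424 TPM and Pfdn2 at 36.9 ± 1.68 TPM. Of the 14 with a mean of 5 TPM or more, 9 lay above the median gene, with a median log2 ratio of −0.12. All 7 folding cofactors, which assemble the alpha-beta dimer, were expressed. Tbca, which holds beta-tubulin, led with 204 ± 7.42 TPM, then Tbcb, which holds alpha-tubulin, with 134 ± 7.82 TPM. Tbcel was the lowest at 4.51 ± 0.509 TPM, and Tbcc, which completes the dimer, the next at 29.8 ± 3.73 TPM.

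Nucleation genes had lower levels than the main isotypes. Gamma-tubulin, which starts new microtubules, came mostly from Tubg1 at 45.6 ± 4.48 TPM, with Tubg2 at 5.88 ± 1.24 TPM. Tubd1 and Tube1, of centrioles, had 9.30 ± 1.36 and 7.32 ± 1.10 TPM. All 8 genes of the gamma-tubulin ring complex were expressed, from Tubgcp2 at 38.1 ± 8.17 TPM and Mzt1 at 33.5 ± 3.16 TPM down to Tubgcp5 at 16.9 ± 1.85 TPM and Tubgcp6 at 11.9 ± 2.33 TPM. Each of these 12 genes lay below the median gene, and none passed 2-fold. Ttc5, which reads the amino end of nascent tubulin to trigger decay of its message, had 52.4 and 42.3 TPM, and Scaper, which acts with it, 10.5 and 8.39 TPM.

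Of 24 genes of enzymes that modify tubulin tails or lysines, and of their partners, 19 reached 1 TPM in both. Svbp, the partner of the detyrosinating vasohibins, was the highest at 196 ± 15.8 TPM, followed by Sirt2, a deacetylase, at 60.6 ± 4.16 TPM. Of the vasohibins, which cleave the terminal tyrosine, Vash2 had 59.7 and 50.5 TPM and Vash1 9.92 and 8.38 TPM. Ttl, the ligase that restores the tyrosine, had 15.8 and 14.0 TPM. Ttll8, a glycylase, and Agbl1, a carboxypeptidase, were the lowest at 0.0750 ± 0.0778 and 0.445 ± 0.0636 TPM. Of the 16 genes of this list with a mean of 5 TPM or more, 13 lay below the median gene.

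Of 11 genes of destabilising and severing proteins the highest was Stmn1, which sequesters tubulin dimers, at 976 ± 138.5 TPM, followed by the neuronal Stmn2 at 63.3 ± 1.90 TPM, and Stmn4 was the lowest at 3.01 ± 0.198 TPM. All 11 were expressed, the next lowest being Fign, a severing enzyme, at 4.99 ± 0.905 TPM. All 14 associated and end-binding proteins were expressed. Mapre1, the plus-end protein EB1, had 177 ± 2.37 TPM, Map1b, of growing axons, 68.1 ± 10.1 TPM, and the lowest were Map7 with 5.79 and 4.58 TPM and Map6 with 7.69 and 7.99 TPM. No gene of these 2 lists passed 2-fold.

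**Figure D4:**
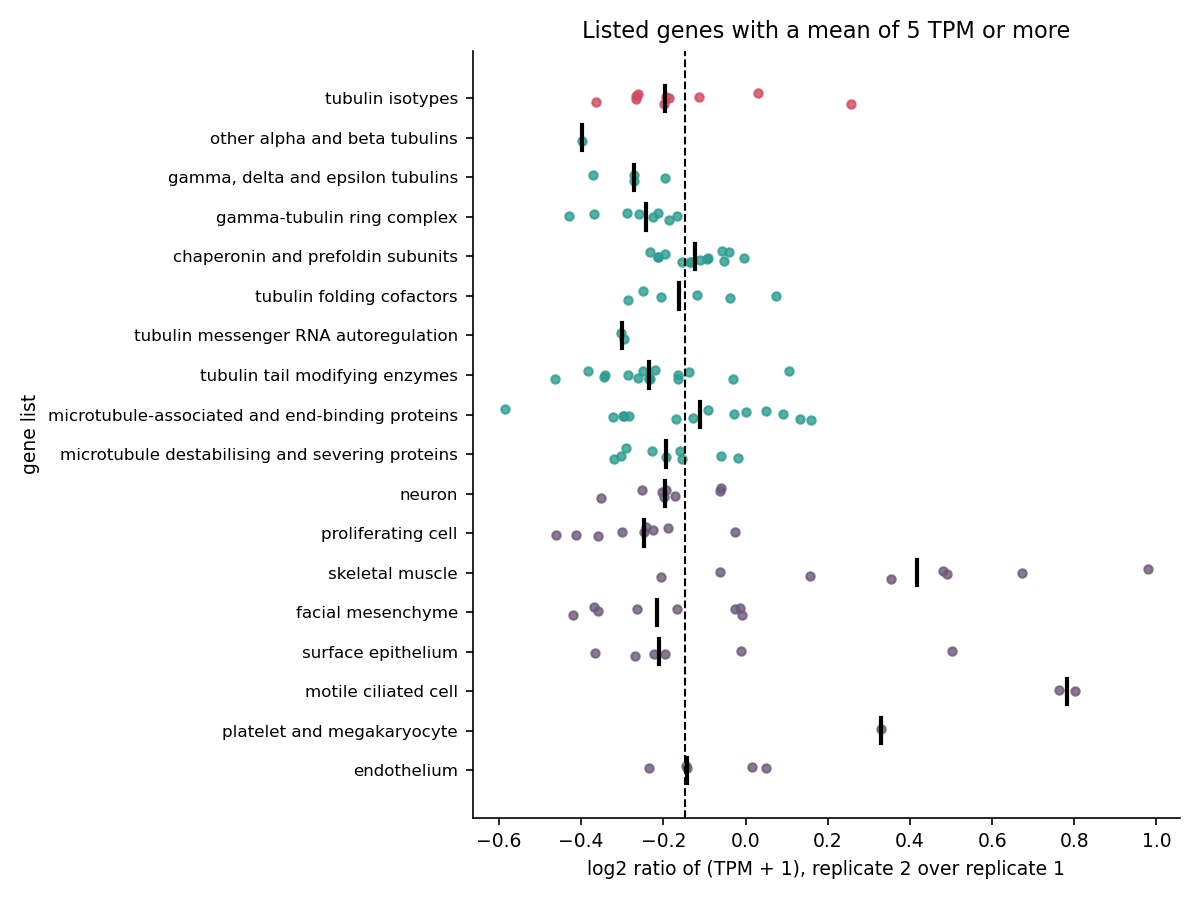
Log2 ratio of (TPM + 1), replicate 2 over replicate 1, for listed genes with a mean of 5 TPM or more: tubulin isotypes in red, pathway lists in green and cell type markers in purple. Black bars are list medians and the dashed line is the median of all genes; 7 of the 8 muscle markers and both cilium markers plotted lie to its right.

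How far the isotypes can be told apart rests on their sequences. Within the alpha family coding sequences were 85.3% to 98.4% identical and within the beta family 80.7% to 96.5%, while alpha against beta reached at most 62.1%. Tuba1a and Tuba1b, with 451 residues each, differ in 2 residues, and so do Tubb2a and Tubb2b, with 445 residues each. Every isotype has 4 exons in the transcript used. Tuba1b, Tuba1a and Tuba1c lie within 106.7 kb of chromosome 15 (98931425 to 99038110, mm10), and Tubb2a and Tubb2b within 56.2 kb of chromosome 13 (34074274 to 34130466).

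**Figure D5:**
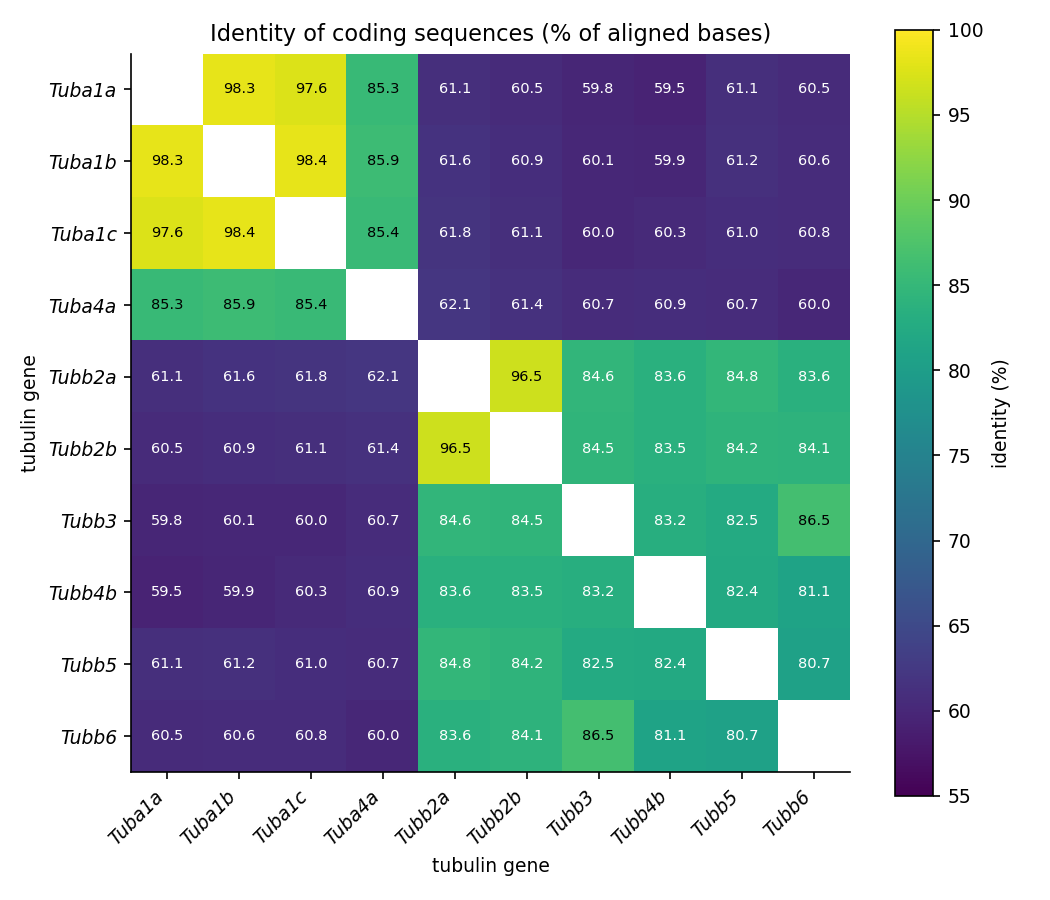
Identity of the coding sequences of each pair of tubulin genes, in percent of aligned bases. The 3 Tuba1 genes and the Tubb2 pair form the bright squares, and every alpha-beta pair is dark.

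A read of 100 bases, the fragment length implied by the deposited effective lengths, could come from more than 1 gene in part of these transcripts. For Tuba1b 73.0% of its windows of 100 bases also occur in another gene, for Tuba1a 65.8% and for Tuba1c 53.4%. The windows were cut from GENCODE M21 transcripts, and some of these differ in length from those quantified, such as Tuba1a with 1803 against 1647 bases. Windows shared with another isotype described here bear on the split among these genes. They made up 52.3% for Tuba1b, 38.4% for Tuba1a and 53.4% for Tuba1c. Gm49450, an annotated gene on the same strand, overlaps Tuba1a by 3715 bases and Tuba1b by 2429, with no deposited gene count of its own. Its transcript Gm49450-201 was counted under Tuba1a, with 21.5 counts in replicate 1 and 25.9 in replicate 2. Windows shared with Gm49450 but with no other isotype are left out of the 52.3% and 38.4%, though they can bear on the split too. Tubb2a and Tubb2b share 543 windows, and Tubb4b shares 30.6% of its windows with 4 other genes, mostly the pseudogene Tubb4b-ps1. No window of Tubb3, Tubb5 or Tubb6 occurs elsewhere. The split among Tuba1a, Tuba1b and Tuba1c, and between Tubb2a and Tubb2b, is therefore an estimate by the authors' quantifier.

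The deposited tables give a measure of that uncertainty, the posterior SD of each count, which rests on the quantifier's own model and annotation. This SD was 105 reads for Tuba1a and 110 for Tuba1b in replicate 1, or 0.195% and 0.259% of their counts. For Tuba1c it was 70.7 reads, or 1.71% of its count, and for Tubb2b 26.6 reads, or 1.51%. Tubb2a had the same SD of 26.6 reads on 7188 counts. For Tuba4a it was 4.67 reads in replicate 1 and 4.88 in replicate 2, or 0.346% and 0.229% of its counts. For Tubb3, Tubb5 and Tubb6 it was 0 in both libraries.

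Processed pseudogenes similar to the isotypes took few reads. With 95% identity over 300 bases or more, 5 pseudogenes near the alpha isotypes had values in the tables and summed to 231 counts in replicate 1 and 260 in replicate 2, or 0.227% and 0.224% of the alpha isotype counts. The 2 near the beta isotypes summed to 18.8 and 14.4 counts. Tubb3 (chromosome 8, 123411424 to 123422015) lies within the long annotated gene Gm20388 on the same strand, which had 318 and 152 counts.

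Tuba4a (chromosome 1, 75214228 to 75219865) was also the isotype with the least certain transcript. It shares 1379 bases with Stk16, a kinase gene on the opposite strand with 1749 and 2112 counts. In Tuba4a-202, the only Tuba4a transcript whose windows were compared, 46.7% of the windows of 100 bases also occur in Stk16. Whether strand was used in counting is not given in the sources used here. The TPM of Tuba4a was split over 5 transcripts in replicate 1, where each other isotype had 98.9% or more in 1 transcript. Tuba4a-206, annotated with an incomplete start, took 39.9% in replicate 1 and 43.6% in replicate 2, and Tuba4a-201, also incomplete, took 37.8% and 36.9%. Tuba4a-202, the transcript with the complete coding sequence, took 4.89% and 6.21%, and Tuba4a-205, which retains an intron, 13.8% and 13.4%. Counts of all 4 were higher in replicate 2, among them 698 and 1056 for Tuba4a-201 and 411 and 695 for Tuba4a-206.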

How the data were processed

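The 2 libraries were made by SMART-seq from 10.0 ng of total RNA each, extracted with mirVana according to the labels. Gene and transcript estimates with RSEM-style columns on mm10 and GENCODE M4 were deposited by the authors, per the text deposited beside each table. Expected counts are the authors' estimated reads, unscaled, per the file headers. TPM is the authors' count over effective length, scaled over all features with spike-ins, and the deposited FPKM served as an alternative. The percent of each transcript, the posterior SD (a column of another kind, in reads) and the signal-like TPM bounds were deposited too. The sources used here do not give the aligner, its version or the strand setting.

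Ensembl identifiers were looked up in GENCODE M21 (mm10) for names, positions and sequences. Genes were called expressed at 1 TPM, and ratios used log2(TPM + 1). Spike-ins took 3.22% and 5.43% of counts. Of each list the highest and the lowest 2 genes, and any past 2-fold, were to be named; some others are named for their role, after their values were seen. Exact 95% binomial intervals used rounded counts. Coding sequences were aligned globally with biopython 1.88, and near-copies found with BLAST 2.17.0. Windows were compared on both strands. Tables were made with pandas 2.3.3 and scipy 1.17.1 in Python 3.11.15 and drawn with matplotlib 3.10.9. R 4.3.3 with edgeR 4.0.16 and DESeq2 1.42.0 gave scaling factors alone. The fold rule was tested on simulated data. The gene lists, like the members, were chosen with earlier results of these data known. Alternatives were other thresholds, units, scalings, pseudocounts and filters and each replicate left out. The coding ends of some isotypes are not reported here.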

Additional observations from a re-analysis of the deposited data

How the results depend on the processing

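The count of isotypes expressed in both libraries (10), the count past 2-fold (0, also at 1.5-fold) and the count above the median gene (3, or 2 with no filter on the genes that set the median) stayed within 1.5 times under each alternative run. By expected counts in place of TPM, which gives long transcripts more weight, Tuba1a held 53.0% of the alpha family, Tubb5 48.6% of the beta family, and the ratio of alpha to beta was 1.51. With Tuba3a, Tuba3b, Tuba8 and Tubal3 added to the family, the share of Tuba1a was 54.71%. Count scaling by edgeR or DESeq2 raised the median log2 ratio of all genes from −0.15 to −0.00, and that of the tubulin genes to −0.04. The same 3 genes, Tuba4a, Tubb2b and Tubb6, lay above the median gene under both, and 3 in place of 2 genes lay above 0. Rescaling TPM over Ensembl genes alone, without spike-ins and any other features, moved 5 of the 10 levels by more than the SD between libraries. It raised Tuba1a from 1670 to 1843 TPM. Protein-coding transcripts alone moved 1 level. No paired analysis was possible because there is a single group. With 2 libraries the spread between biological replicates is poorly known, and depth limits the genes near 0 counts, such as Tubal3 and Tuba3b.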

Other observations

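Tubb3 had the same expected count, 2809, in both libraries. Among 6604 genes with 1000 or more counts in each library, 2 others had equal counts, Cnot10 with 2567 and Rpap1 with 1549.

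The deposited TPM lay above the upper deposited bound for 6 of the 10 isotypes in replicate 1 and 5 in replicate 2, and below the lower bound for none in either library. Tuba1a, Tuba1b, Tubb4b, Tubb5 and Tubb6 did so in both and Tubb2a in replicate 1. For Tuba1a the bounds were 1710 to 1743 beside 1777 TPM in replicate 1. The level of credibility is not given in the sources used here, and the bounds were not used for any comparison.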
